A study of Eragrostis tef with 16 samples.

Results

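The genes described here build, modify or loosen the polysaccharides of the plant cell wall in tef (Eragrostis tef, an allotetraploid cereal). They were chosen by description: a gene with values was taken when its description named a cellulose synthase, COBRA protein, expansin, arabinogalactan protein or callose synthase, or an enzyme of xyloglucan or pectin (pectin, pectate, polygalacturonase, galacturonosyltransferase, xylosyltransferase), and was left out when it named a receptor. The rule took 76 of 5824 genes. They comprised 10 cellulose synthase genes (1 of them a partner protein of the enzyme), 4 cellulose synthase-like genes, 1 COBRA-like gene, 10 callose synthases, 12 xyloglucan genes, 13 expansins, 11 galacturonosyltransferases, 6 other pectin genes, 4 polygalacturonases and 5 arabinogalactan proteins. No gene was described as a pectate lyase or a xylosyltransferase. Names are those of the best hit in another grass, foxtail millet (Setaria) for 75 genes and rice for 1.

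Tef plants were grown in hydroponic solution with either low or optimum calcium, and root and shoot were sampled from each, giving 4 groups of 4 libraries: optimum-calcium root, low-calcium root, optimum-calcium shoot and low-calcium shoot. The labels give no cultivar, plant age or calcium concentration, and do not say whether the 4 replicates of a group were separate plants, so p-values measure only the spread between libraries, which may be technical. Whether the gene values count mRNA or small RNA reads is not stated, so "rose" and "fell" refer to reads on a gene of either kind. Low-calcium shoot replicate 4 has a title that names both tissues and was placed by its source name, shoot, so the main counts are also given without it.

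The wall of a growing plant cell is a cellulose network held in a matrix of pectin and other polysaccharides. Cellulose is made at the plasma membrane by complexes of CESA subunits, and in grasses mixed-linkage glucan and xylans take much of the role that xyloglucan has in other plants. The pectin homogalacturonan is made methyl-esterified. Once pectin methylesterases remove the esters, calcium ions can cross-link the chains, which makes pectin a main site of calcium in the wall. Expansins loosen the wall during growth, and xyloglucan endotransglucosylase/hydrolases (XTHs) cut and rejoin xyloglucan.

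Depth differed between calcium levels: gene reads per library were 2.32 to 3.44 Mreads (megareads) in optimum-calcium and 1.20 to 2.02 Mreads in low-calcium root, and 2.63 to 2.85 against 1.82 to 2.10 Mreads in shoot. The calcium groups thus did not overlap in depth in either tissue, so depth and calcium cannot be told apart. The library numbers in the titles run from 1 to 8 for the low-calcium libraries and from 9 to 16 for the optimum-calcium libraries, so any effect of that order cannot be told apart from calcium. Photosynthesis genes (15 shoot markers) took at least 8.10% of the reads in each shoot library, the lowest being low-calcium shoot replicate 4, and 0.0447% to 0.0925% in root libraries. All values below are log2 of scaled reads plus 1, as deposited, and a change is a difference between group means on that scale. Gene lengths are not known here, so levels are compared between libraries for 1 gene and not between genes.

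Under low calcium, wall genes rose in the shoot. In limma with Benjamini-Hochberg adjustment over all genes, 39 of the 76 were higher in low-calcium than in optimum-calcium shoot, 3 were lower and 34 did not pass an adjusted p of 0.05. Of all 5824 genes, 18.5% were higher and 20.9% lower. The median change was 0.86 over the 76 genes and -0.12 over all genes. A rise of at least 2-fold that passed was found for 34 of the 76, against 13.4% of all genes, and 9 of the 76 were among the 100 largest rises of the whole table. For 35 genes all 4 low-calcium shoot libraries lay above all 4 optimum-calcium ones, against 14.1% of all genes, and for 3 they all lay below, against 17%. Without low-calcium shoot replicate 4, 34 rose and 3 fell. These are bulk tissues, in which a change in the share of a cell type and a change in the RNA per cell cannot be told apart.

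As a share of gene reads, the 76 genes together took 0.471%, 0.575%, 0.569% and 0.530% in the optimum-calcium shoot libraries and 1.28%, 1.22%, 0.787% and 1.59% in the low-calcium ones. In root they took 0.914%, 0.833%, 1.23% and 0.703% under optimum and 1.12%, 1.17%, 0.987% and 1.08% under low calcium. The shoot groups did not overlap, with low-calcium replicate 3 closest to the optimum libraries, whereas the root groups did overlap. No test was made of these shares.

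**Figure D1:**
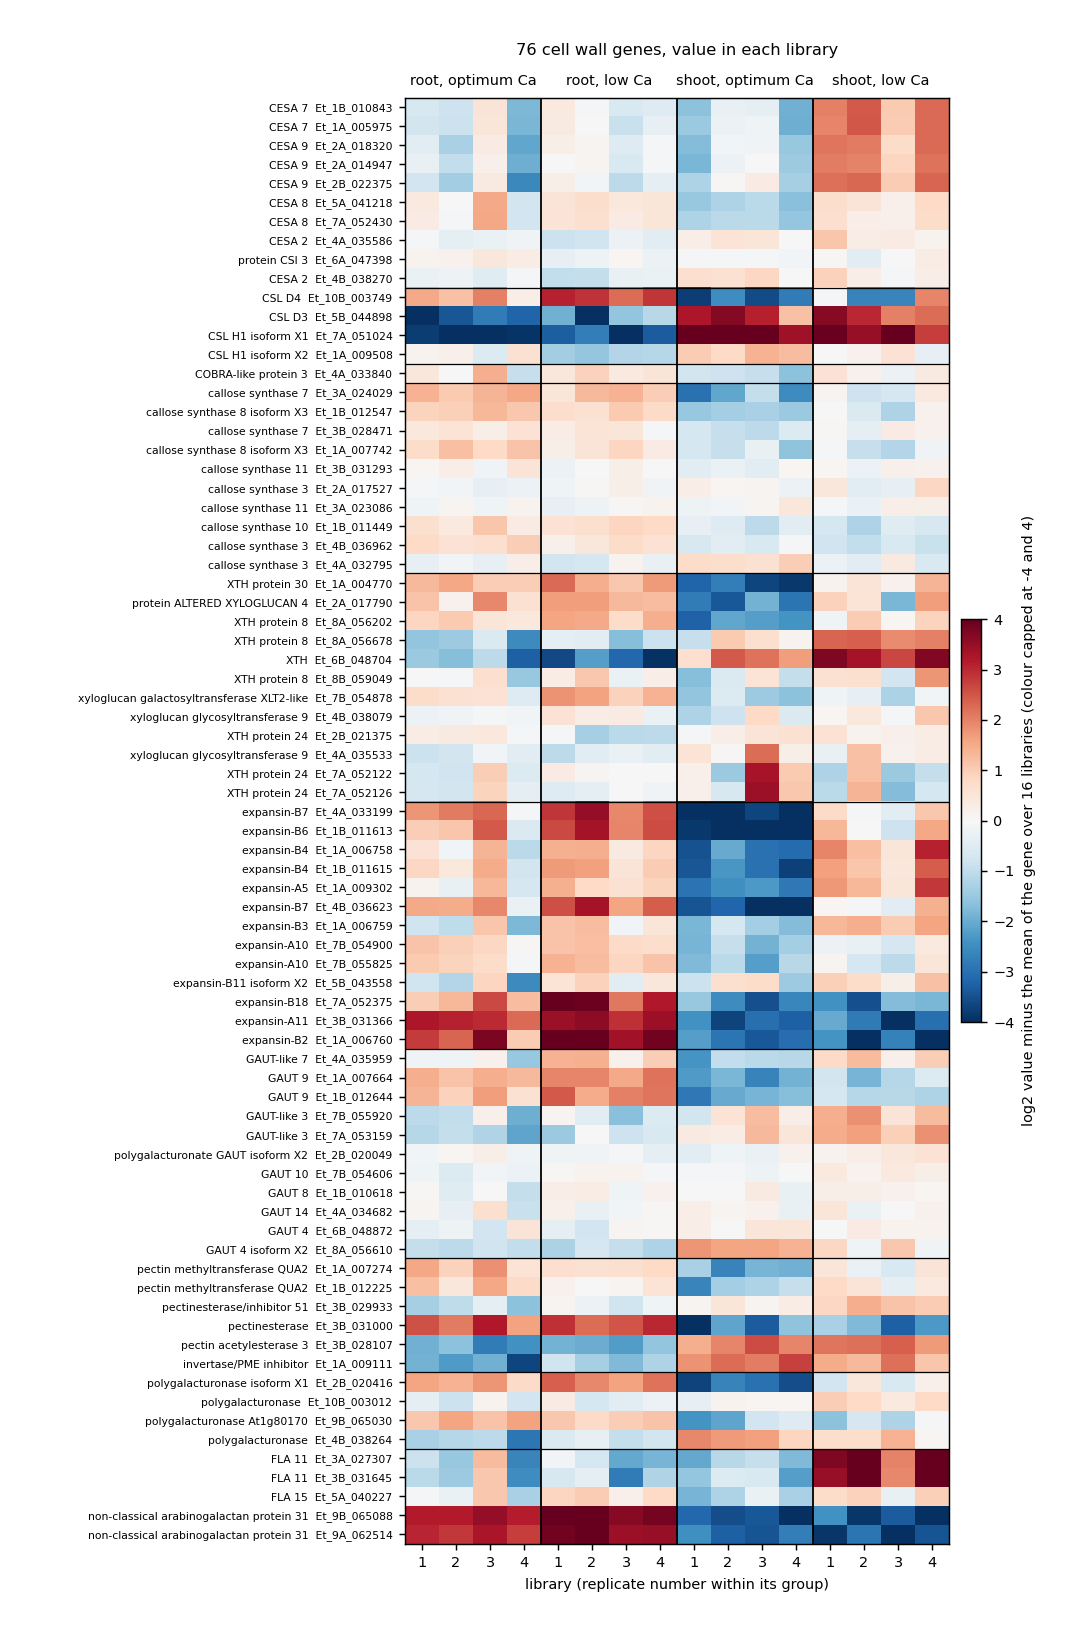
Deposited log2 value of each of the 76 genes in each of the 16 libraries, minus the mean of that gene over the 16, with genes in rows ordered by role class and by shoot change within a class, and libraries in columns by group. Red is above and blue below the mean of the gene. The CESA7, CESA9 and FLA11 rows were reddest in the low-calcium shoot columns, while the expansins that rose were bluest in the optimum-calcium shoot columns.

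Genes for lignin, and a list of kinesins, histones and DNA replication licensing factors, also rose in shoot more often than they fell. Of 29 genes for lignin and its precursors, taken as markers of lignifying tissue, 17 rose and 2 fell in shoot. Of all genes, 18.5% rose and 20.9% fell there. The summed share of the 29 was 0.240% to 0.313% in optimum-calcium shoot and 0.481% to 0.848% in low-calcium shoot. In root 6 of the 29 rose and 0 fell, against 5.32% and 3% of all genes. Their share there was 0.369% to 0.781% under optimum and 0.801% to 1.03% under low calcium, which did not overlap. Of 33 genes for kinesins, histones and DNA replication licensing factors, taken as markers of dividing cells, 15 rose and 1 fell in shoot, against 18.5% and 20.9% of all genes. The share of the 33 in shoot was 0.111% to 0.142% under optimum and 0.133% to 0.285% under low calcium, the highest being replicate 4. These shares overlapped. No gene of either list was at 0 in all 4 libraries of a group. The part of lignifying or dividing cells in the rise of the wall genes was not tested. The 6 root markers, for nicotianamine synthesis and transport, took 0.112% to 0.210% of optimum-calcium and 0.124% to 0.177% of low-calcium shoot reads, and none of the 6 passed in shoot. In root their share was 1.19% to 3.25% under optimum and 0.348% to 2.12% under low calcium, and 1 of the 6 fell. Under low calcium only 3 of the 6 passed as higher in root than in shoot, which limits them as root markers there.

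**Figure D2:**
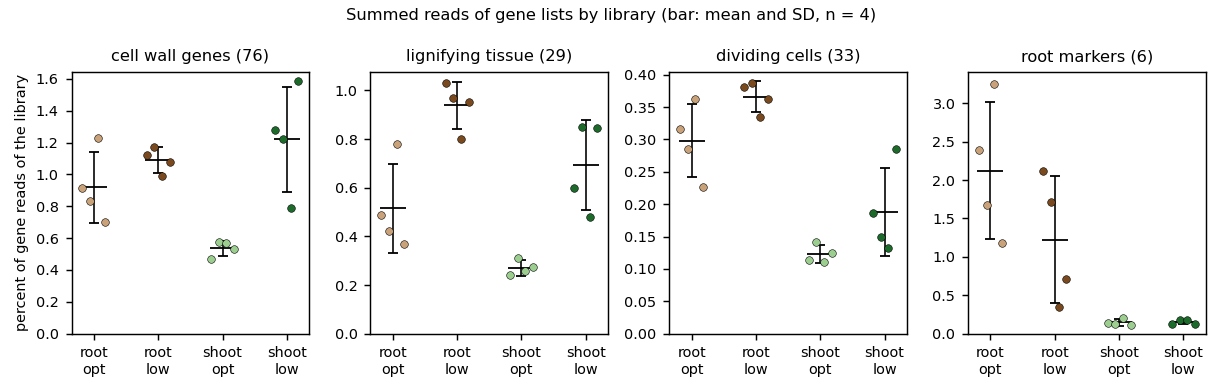
Percent of the gene reads of each library (y axis) taken by the 76 wall genes, 29 lignifying-tissue genes, 33 dividing-cell genes and 6 root markers, by group (x axis; opt, optimum calcium). Points are libraries and bars are the mean and SD of 4. The wall genes and the lignifying-tissue genes did not overlap between the shoot groups, while the dividing-cell genes and root markers did. Between the root groups only the lignifying-tissue genes did not overlap.

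Among the genes for cellulose synthesis, the CESA7 and CESA9 subunits rose together. In rice, subunits with these numbers make the cellulose of secondary walls. All 5 copies described as CESA7 or CESA9 were higher in low-calcium shoot, by 2.52 to 3.01. The A copy of CESA7 (Et_1A_005975) had values of 7.59, 8.82, 8.90 and 7.10 in optimum-calcium shoot and 11.03, 11.54, 10.06 and 11.34 in low-calcium shoot. Its B copy (Et_1B_010843) had 6.39, 7.74, 7.63 and 6.12 and then 10.06, 10.49, 9.08 and 10.29. Neither copy overlapped between the groups, and the rises were 2.89 ± 0.48 (SE, n = 4 against 4, limma adjusted p 0.00036) and 3.01 ± 0.46 (limma adjusted p 0.00017). In root the same copies changed by 0.53 and 0.48, which did not pass (limma adjusted p 0.48 and 0.51).

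All 3 CESA9 copies rose in shoot. The copy Et_2A_018320 had 7.72, 9.34, 9.32 and 7.92 in optimum-calcium shoot and 11.58, 11.54, 10.18 and 11.71 in low-calcium shoot. It rose by 2.68 ± 0.49 (limma adjusted p 0.00076), and Et_2A_014947 and Et_2B_022375 rose by 2.65 and 2.52. In all 3 copies low-calcium shoot replicate 3 was the lowest of its group, at 10.18, 8.72 and 10.14. In root they changed by 0.62 to 0.83, none past the test.

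The other CESA genes divided. CESA8 rose by 1.93 ± 0.32 (Et_5A_041218, limma adjusted p 0.00036) and by 1.70 ± 0.33 (Et_7A_052430, limma adjusted p 0.0012). The values of Et_5A_041218 were 7.89, 8.16, 8.34 and 7.75 in optimum-calcium shoot and 10.12, 9.92, 9.61 and 10.19 in low-calcium shoot. CESA2 did not pass: its copy Et_4A_035586 had 8.92, 9.20, 9.12 and 8.65 and then 9.76, 8.94, 8.98 and 8.77, a change of 0.14 (limma adjusted p 0.61), and its partner Et_4B_038270 changed by -0.17. CELLULOSE SYNTHASE INTERACTIVE 3 (Et_6A_047398), of a family that in Arabidopsis links the complexes to microtubules, changed by 0.05. COBRA-like protein 3 (Et_4A_033840), of a family of membrane-anchored proteins needed for cellulose assembly, rose by 1.25 ± 0.36 (limma adjusted p 0.013). It had 7.71, 7.61, 7.53 and 6.82 under optimum and 9.03, 8.63, 8.21 and 8.81 under low calcium in shoot, with no overlap.

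The 4 cellulose synthase-like genes went different ways. CSLH1 isoform X2 (Et_1A_009508), of a family that makes mixed-linkage glucan in barley, was the only 1 of the 76 genes that fell in both tissues. In shoot it had 6.70, 6.48, 7.09 and 6.93 under optimum and 5.72, 5.86, 6.28 and 5.36 under low calcium, a fall of 1.00 on the log2 scale (limma adjusted p 0.0072). In root it had 5.83, 5.90, 5.15 and 6.30 and then 4.30, 4.14, 4.52 and 4.54, and fell by 1.42 (SE 0.26, limma adjusted p 0.0083). Neither tissue overlapped between calcium levels. The other gene described as CSLH1, isoform X1 (Et_7A_051024), changed by -0.38 in shoot and 0.61 in root, neither past the test. CSLD proteins are known in Arabidopsis for tip-growing cells such as root hairs. CSLD4 (Et_10B_003749) had 2.29, 3.57, 2.46 and 3.25 in optimum-calcium shoot and 5.97, 3.36, 3.42 and 8.01 in low-calcium shoot, so the groups overlapped. Its rise of 2.30 (SE 0.76, limma adjusted p 0.026) was 1.36 without low-calcium shoot replicate 4 (limma adjusted p 0.083), and it did not pass without low-calcium replicate 1 (limma adjusted p 0.066) or optimum-calcium replicates 1 (0.071) or 3 (0.060) either, or with voom (0.15).

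Callose, a glucan laid down at plasmodesmata, sieve plates and cell plates, is made by large single-protein synthases. Of 10 callose synthases 3 rose, 1 fell and 6 did not pass in shoot, where 18.5% of all genes rose and 20.9% fell. Both copies of callose synthase 7 rose, Et_3A_024029 by 1.87 ± 0.38 (limma adjusted p 0.0017) and Et_3B_028471 by 0.85 ± 0.20 (limma adjusted p 0.0043). The former had 2.77, 3.69, 4.81 and 3.25 in optimum-calcium shoot and 5.86, 4.92, 5.08 and 6.15 in low-calcium shoot, which did not overlap. One copy of callose synthase 8 rose (Et_1B_012547, 1.00, limma adjusted p 0.0051), while its partner (Et_1A_007742) changed by 0.32 (limma adjusted p 0.39). The copy of callose synthase 3 Et_4A_032795 fell by 0.99 on the log2 scale (SE 0.22, limma adjusted p 0.0032), from 10.45, 10.45, 10.34 and 10.71 to 9.51, 9.29, 10.08 and 9.11. Its partner Et_4B_036962 changed by -0.39, which did not pass (limma adjusted p 0.062).

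Expansins made up 6 of the 10 largest rises in shoot. Expansins are small wall proteins that loosen the wall, and the beta-expansins are numerous in grasses. Of 13 expansins 9 rose in shoot, 6 of 9 beta-expansins and 3 of 4 alpha-expansins, and none fell. Of all genes, 18.5% rose and 20.9% fell in shoot. The median change of the 13 expansins was 2.75. In root 0 of the 13 passed in limma, against 5.32% higher and 3% lower of all genes. Their changes in root were 0.21 to 1.82, all positive.

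The A copy of expansin-B7 (Et_4A_033199) had 0.98, 0.99, 2.46 and 1.83 in optimum-calcium shoot, a sum of 9 reads over the 4 libraries, and 6.89, 6.05, 5.70 and 7.19 in low-calcium shoot, a sum of 329 reads. The rise was 4.89 ± 0.51 (limma adjusted p 6.2e-06). On the scale of the authors, without logs, the ratio was 44.2-fold, with an exact 95% interval of 23.0 to 97.5 that covers counting error only. Its B copy (Et_4B_036623) rose by 4.11 ± 0.52 (limma adjusted p 3.4e-05).

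Expansin-B6 and both copies of expansin-B4 rose by similar amounts. Expansin-B6 (Et_1B_011613) had 1.97, 1.57, 1.70 and 1.44 and then 7.13, 5.83, 4.97 and 7.37 in shoot, a rise of 4.65 ± 0.56 (limma adjusted p 2.3e-05). Expansin-B4 Et_1A_006758 had 2.97, 4.44, 3.48 and 3.38 and then 8.43, 7.66, 6.95 and 9.56, and rose by 4.58 ± 0.54 (limma adjusted p 1.8e-05). The other copy, Et_1B_011615, rose by 4.52 ± 0.47 (limma adjusted p 5.5e-06). In none of these did the shoot groups overlap, and replicate 3 was the lowest low-calcium library in each. Expansin-B3 (Et_1A_006759) had 6.67, 7.82, 7.15 and 6.77 and then 9.85, 9.98, 9.53 and 10.08, a rise of 2.75 ± 0.47 (limma adjusted p 0.0004).

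Among the alpha-expansins, expansin-A5 (Et_1A_009302) had 2.29, 2.79, 2.96 and 2.40 in optimum-calcium shoot and 6.98, 6.59, 5.74 and 8.09 in low-calcium shoot. It rose by 4.24 ± 0.46 (limma adjusted p 7.9e-06). Both genes described as expansin-A10 (Et_7B_054900 and Et_7B_055825) rose, by 1.31 and 1.26. Expansin-A11 (Et_3B_031366), expansin-B2 (Et_1A_006760) and expansin-B18 (Et_7A_052375) did not share the rise. Expansin-A11 had 2.29, 0.99, 1.70 and 1.44 in optimum-calcium shoot and 2.70, 1.87, 0.00 and 1.69 in low-calcium shoot, against 6.96 to 8.28 over the 8 root libraries. Expansin-B2 had 1.09 to 2.29 and then 0.00 to 2.10 in shoot, against 5.50 to 8.77 in root. Expansin-B18 had 0.00 to 1.97 and then 0.00 to 1.78 in shoot, against 4.48 to 7.69 in root.

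**Figure D3:**
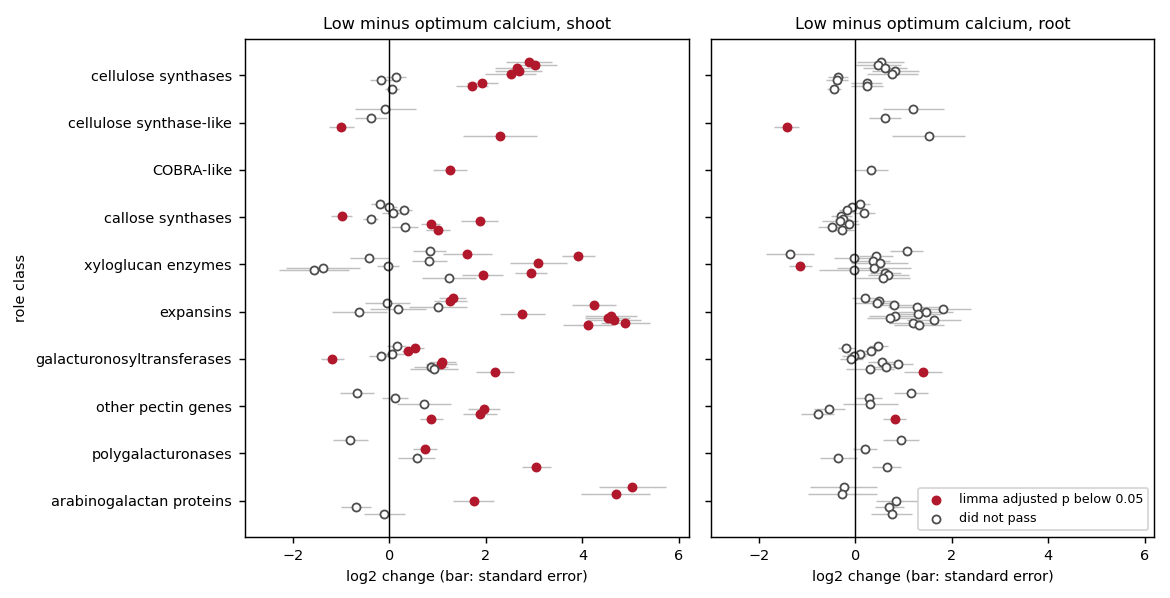
Log2 change (x axis; low minus optimum calcium, bar = standard error) of each of the 76 genes by role class (y axis) in shoot (left) and root (right). Filled points passed a limma adjusted p of 0.05 and open points did not. In shoot 39 filled points lie to the right and 3 to the left of 0, and in root 2 lie on each side.

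Xyloglucan genes were mixed. Of 12, 5 rose in shoot, none fell and 7 did not pass, against 18.5% higher and 20.9% lower of all genes. The 5 were 4 of the 8 XTHs and ALTERED XYLOGLUCAN 4, an acetyltransferase of xyloglucan in Arabidopsis. XTH30 (Et_1A_004770) had 1.56, 1.99, 1.09 and 0.89 in optimum-calcium shoot, 7 reads in all, and 4.89, 5.25, 4.92 and 6.13 in low-calcium shoot, 140 reads in all. It rose by 3.91 ± 0.35 (limma adjusted p 1.5e-06). ALTERED XYLOGLUCAN 4 (Et_2A_017790) rose by 3.09 ± 0.59 (limma adjusted p 0.0012), from 1.56, 0.99, 2.46 and 1.44 to 5.30, 4.92, 2.55 and 6.03, replicate 3 lying just above the optimum libraries.

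The genes described as XTH8 did not all pass. Et_8A_056202 rose by 2.93 ± 0.32 (limma adjusted p 9.8e-06) and Et_8A_056678 by 1.93 ± 0.42 (limma adjusted p 0.0027). The values of the former were 2.29, 3.44, 3.33 and 3.12 and then 5.34, 6.55, 5.60 and 6.42. The copy Et_8B_059049 changed by 1.23 (limma adjusted p 0.087) but passed without low-calcium shoot replicate 3 (1.67, limma adjusted p 0.021) or optimum-calcium replicate 3 (1.64, limma adjusted p 0.033). An XTH with no number (Et_6B_048704) had 5.72, 7.50, 7.22 and 6.73 and then 8.77, 8.37, 7.72 and 8.74, a rise of 1.61 (SE 0.50, limma adjusted p 0.019). Its rise did not pass without optimum-calcium shoot replicate 1 (1.25, limma adjusted p 0.072) or low-calcium shoot replicate 4 (limma adjusted p 0.058).

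A pair of genes described as XTH24 on chromosome 7A varied between libraries of 1 group. Et_7A_052122 had 6.47, 4.79, 9.56 and 7.31 in optimum-calcium shoot and 5.04, 7.44, 4.79 and 5.32 in low-calcium shoot. Et_7A_052126 followed it library by library, with 6.26, 5.44, 9.51 and 7.16 and then 4.99, 7.44, 4.35 and 5.36. Their changes of -1.38 and -1.56 did not pass (limma adjusted p 0.16 and 0.099). Without optimum-calcium shoot replicate 2 they passed at -2.13 (limma adjusted p 0.027) and -2.11 (0.035), and Et_7A_052126 also passed without low-calcium shoot replicate 2 (-2.20, limma adjusted p 0.028).

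Pectin synthesis genes gave both rises and a fall in shoot. Galacturonosyltransferases (GAUT, and GAUT-like or GATL) include the enzymes that build homogalacturonan. Of 11, 5 rose, 1 fell and 5 did not pass in shoot, against 18.5% higher and 20.9% lower of all genes. GATL7 (Et_4A_035959) had 4.49, 5.87, 5.79 and 5.73 in optimum-calcium shoot and 7.63, 8.12, 7.05 and 7.83 in low-calcium shoot, a rise of 2.19 ± 0.39 (limma adjusted p 0.00067). Both copies of GAUT9 rose, Et_1A_007664 by 1.09 (limma adjusted p 0.0071) and Et_1B_012644 by 1.07 (limma adjusted p 0.015). Neither copy of GAUT9 passed with voom (limma adjusted p 0.068 and 0.19), and leaving out optimum-calcium shoot replicate 1 ended the call of the second copy (0.83, limma adjusted p 0.051). GAUT4 isoform X2 (Et_8A_056610) fell by 1.18 on the log2 scale (SE 0.24, limma adjusted p 0.0017), from 9.21, 9.03, 9.04 and 8.84 to 8.27, 7.28, 8.52 and 7.31. GAUT8 (Et_1B_010618) changed by 0.15 (limma adjusted p 0.58).

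Pectin is modified after synthesis by methyl transfer, ester removal and cleavage. Both copies of QUA2, a pectin methyltransferase that in Arabidopsis is needed for homogalacturonan and cell adhesion, rose in shoot. Et_1A_007274 had 4.82, 3.44, 4.25 and 4.18 and then 6.59, 5.83, 5.48 and 6.62, a rise of 1.96 ± 0.33 (limma adjusted p 0.00039). Et_1B_012225 had 3.29, 4.57, 4.69 and 4.99 and then 6.72, 6.43, 5.56 and 6.32, a rise of 1.87 ± 0.35 (limma adjusted p 0.0009). Neither overlapped. In root the 2 copies changed by -0.54 and -0.78, which did not pass (limma adjusted p 0.29 and 0.15).

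The genes for ester removal or its inhibition gave 1 rise in shoot. Pectinesterase/pectinesterase inhibitor 51 (Et_3B_029933), whose name joins a methylesterase and its inhibitor domain, had 8.51, 8.89, 8.51 and 8.68 and then 9.24, 9.86, 9.55 and 9.41 in shoot, a rise of 0.87 ± 0.23 (limma adjusted p 0.0096). The gene described only as pectinesterase (Et_3B_031000), named after its values were seen, did not pass in either tissue. Its group means were 1.55 under optimum and 2.26 under low calcium in shoot, and 6.77 and 7.09 in root. Pectin acetylesterase 3 (Et_3B_028107) changed by 0.11 in shoot. The invertase/pectin methylesterase inhibitor gene (Et_1A_009111) changed by -0.67 in shoot (limma adjusted p 0.14) and 1.16 in root (limma adjusted p 0.053).

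Polygalacturonases cleave homogalacturonan, and 2 of 4 rose in shoot, against 18.5% of all genes. Et_2B_020416, the one with the larger change, had 5.21, 6.23, 5.93 and 5.36 in optimum-calcium shoot and 8.14, 9.37, 8.29 and 9.11 in low-calcium shoot. It rose by 3.04 ± 0.30 (limma adjusted p 4.2e-06). Et_10B_003012 rose by 0.74 (limma adjusted p 0.028) but did not pass without any one of optimum-calcium shoot replicate 1 or low-calcium shoot replicates 1, 2 or 4 (limma adjusted p 0.062 to 0.087). Et_4B_038264 changed by -0.81, which did not pass (limma adjusted p 0.092).

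The FLA11 copies rose by amounts like those of expansins B7, B6 and B4. Fasciclin-like arabinogalactan proteins are glycoproteins of the wall and membrane surface, and FLA11 in Arabidopsis is known from stems that form secondary walls. Et_3A_027307 had 4.13, 5.07, 5.26 and 4.43 in optimum-calcium shoot and 9.93, 10.27, 8.16 and 10.67 in low-calcium shoot, sums of 107 and 3515 reads. It rose by 5.03 ± 0.70 (limma adjusted p 7.3e-05). Et_3B_031645 had 4.13, 5.15, 5.08 and 3.49 and then 9.16, 9.88, 7.61 and 9.95, and rose by 4.69 ± 0.72 (limma adjusted p 0.00016). Without logs the ratios were 39.7-fold (32.8 to 48.6) and 29.7-fold (24.1 to 36.9), with exact 95% intervals for counting error only.

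Of the other arabinogalactan proteins, FLA15 (Et_5A_040227) rose in shoot and the AGP31 pair did not. FLA15 had 6.77, 7.39, 8.38 and 7.33 and then 9.36, 9.56, 8.35 and 9.59, a rise of 1.74 ± 0.43 (limma adjusted p 0.0057), with replicate 3 at the level of the highest optimum library. Non-classical arabinogalactan protein 31 had 2.13 to 3.13 (Et_9A_062514) and 0.89 to 1.97 (Et_9B_065088) in optimum-calcium shoot. In low-calcium shoot it had 1.15 to 2.66 and 0.00 to 2.70. In root the same copies lay between 8.36 and 9.55 and between 8.26 and 9.45.

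**Figure D4:**
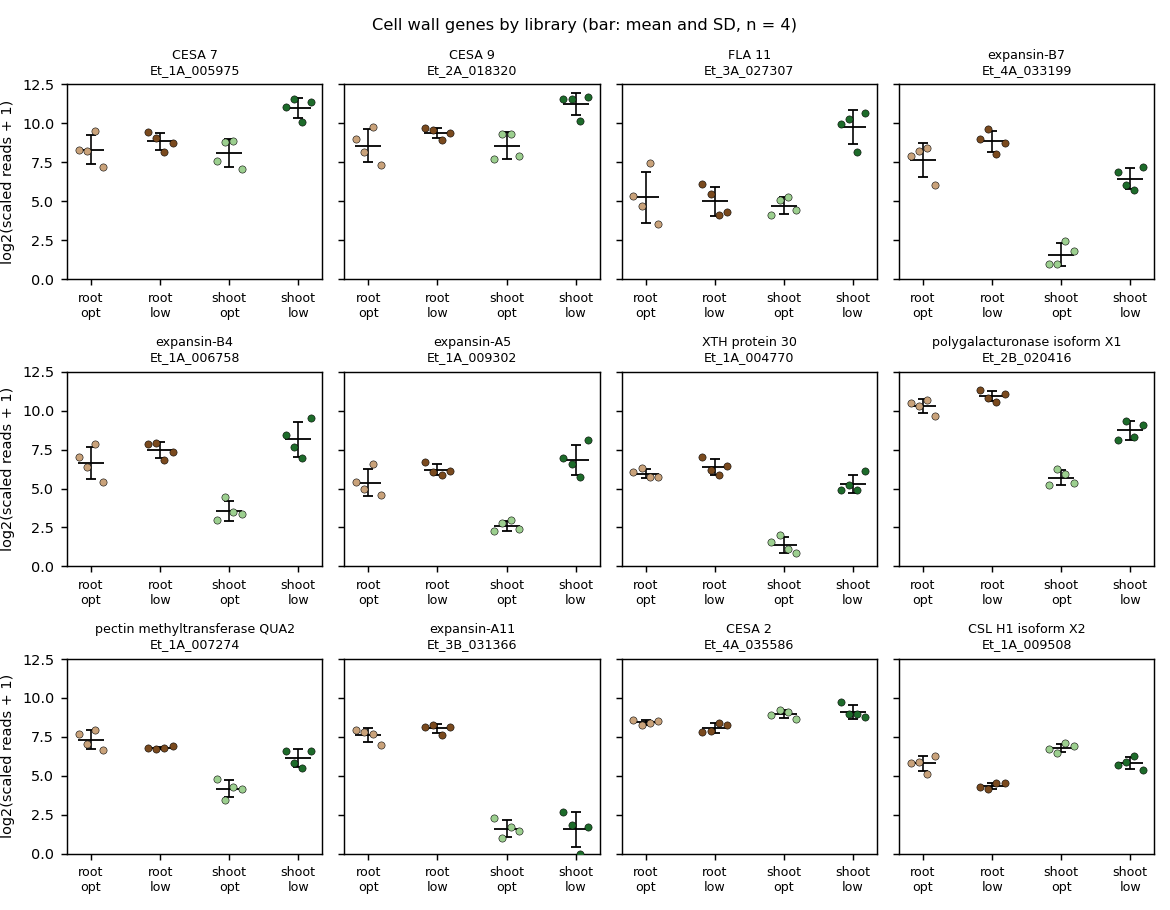
Deposited log2 value (y axis, log2 of scaled reads plus 1) in each library for 12 of the wall genes, by group (x axis; opt, optimum calcium). Points are libraries and bars are the mean and SD of 4. CESA7, CESA9 and FLA11 were highest in low-calcium shoot, the expansins B7, B4 and A5 and XTH30 were lowest in optimum-calcium shoot, and expansin-A11 stayed low in both shoot groups.

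In root few wall genes passed. Of the 76, 2 rose and 2 fell under low calcium, against 5.32% and 3% of all genes, and 72 did not pass. The median change was 0.40 over the 76 genes and -0.03 over all genes. At an unadjusted limma p under 0.05 there were 21 of the 76 and 1648 of all 5824 genes, a similar share. Of the 21, 16 were positive, and the split by direction was not counted for all genes. All 4 low-calcium libraries lay above all 4 optimum ones for 9 of the 76, against 12% of all genes, and below for 2, against 9.53%.

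GATL7 and pectinesterase/pectinesterase inhibitor 51 were the 2 that rose, and both also rose in shoot. GATL7 (Et_4A_035959) had 6.72, 6.66, 7.04 and 5.33 in optimum-calcium root and 8.23, 8.26, 7.04 and 7.84 in low-calcium root, a rise of 1.40 ± 0.39 (limma adjusted p 0.040). Pectinesterase/pectinesterase inhibitor 51 (Et_3B_029933) had 7.08, 7.37, 7.99 and 6.77 and then 8.51, 8.15, 7.60 and 8.21, a rise of 0.82 ± 0.23 (limma adjusted p 0.044). Neither call held without replicate 1, 2 or 4 of either root group: the limma adjusted p was then 0.068 to 0.13 for GATL7 and 0.082 to 0.14 for the other gene. The latter also missed without optimum-calcium shoot replicate 1 (limma adjusted p 0.054) or 2 (0.052), which enter the estimate of the spread. Optimum-calcium root replicate 3 had the highest, and low-calcium root replicate 3 the lowest, share of wall gene reads within its group. The count of rises was 10 without optimum-calcium root replicate 3, 5 without low-calcium root replicate 3, 4 without low-calcium shoot replicate 3 and 11 with voom.

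The 2 falls in root were CSLH1 isoform X2, described above, and an XTH24 (Et_2B_021375). This XTH24 had 8.31, 8.37, 8.42 and 7.90 in optimum-calcium root and 7.92, 6.68, 6.90 and 6.94 in low-calcium root, a fall of 1.14 on the log2 scale (SE 0.23, limma adjusted p 0.014). It did not pass without low-calcium root replicate 2 (-0.99, limma adjusted p 0.053) or 4 (-1.08, limma adjusted p 0.053). In shoot it changed by -0.03.

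The response itself differed between tissues for 21 of the 76 genes, tested as the interaction of tissue and calcium. It was more positive in shoot for 20, against 5.58% of all genes, and more positive in root for 1, against 1.82%. All 20 were genes that rose in shoot. As root minus shoot, the difference in response was -5.28 and -4.96 for the FLA11 copies (Et_3A_027307 and Et_3B_031645), -3.75 and -3.81 for expansin-B4 (Et_1A_006758 and Et_1B_011615) and -3.48 for XTH30 (Et_1A_004770). It was -3.43 for expansin-A5 (Et_1A_009302), -2.49 and -2.65 for QUA2 (Et_1A_007274 and Et_1B_012225) and -2.39 for the polygalacturonase Et_2B_020416. The limma adjusted p of these 9 lay between 0.00075 and 0.0075. With voom on the recovered reads the count of 20 became 10, and among these 9 the calls of both expansin-B4 copies, expansin-A5 and the FLA11 copy Et_3B_031645 were lost. The gene with the more positive response in root was the invertase/pectin methylesterase inhibitor gene (Et_1A_009111, 1.83, limma adjusted p 0.036).

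This comparison also depended on the libraries used. Without low-calcium shoot replicate 4 the difference passed for 13 genes in the direction of shoot and for 0 in that of root (limma). The CESA7 copies, at -2.37 and -2.53 (limma adjusted p 0.046 and 0.028), a CESA8 copy (Et_5A_041218, -1.69), expansin-B6 (-3.01), the B copy of expansin-B7 (-2.79), a callose synthase 7 copy (Et_3B_028471, -0.97), a callose synthase 8 copy (Et_1B_012547, -1.28) and the inhibitor gene were not past the test there. For CESA9 the difference of -1.75 to -2.03 did not pass (limma adjusted p 0.065 to 0.17), so a different CESA9 response in root and shoot was not shown.

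Under optimum calcium, 38 of the 76 genes were higher in root than in shoot and 16 higher in shoot, against 32.9% and 33.7% of all genes. Under low calcium 24 were higher in root and 24 higher in shoot, against 28.4% each. Of the 38, 24 were still higher in root under low calcium and 14 no longer passed. Among the 14 were both expansin-B4 copies, expansin-A5, both QUA2 copies, both CESA8 copies and COBRA-like protein 3. A further 10 genes passed as higher in shoot under low calcium and not under optimum calcium, among them the 5 CESA7 and CESA9 copies at -1.86 to -2.29 and the FLA11 copies at -4.76 and -4.71 (root minus shoot). Since the tissue comparisons share the libraries of the calcium comparisons, these counts describe the same changes from the other side. Of the 39 genes that rose in shoot, 25 were higher in root than in shoot under optimum calcium, 3 were higher in shoot and 11 did not pass.

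Some genes kept a strong tissue preference at both calcium levels. Toward root these were the AGP31 pair, at 5.97 and 6.83 under optimum and 7.37 and 7.69 under low calcium (Et_9A_062514 and Et_9B_065088), expansin-A11, at 6.49 under low calcium, and expansin-B2 at 5.36 and 7.45. Toward shoot the largest was CSLH1 isoform X1 (Et_7A_051024), with 1.89 to 2.48 in optimum-calcium root and 9.64 to 10.51 in optimum-calcium shoot, a root minus shoot difference of -7.98. CSLD3 (Et_5B_044898) stood at -6.18, the invertase/pectin methylesterase inhibitor gene at -4.64 and pectin acetylesterase 3 at -4.19, all under optimum calcium. Under low calcium CSLH1 isoform X1 stood at -7.00 and pectin acetylesterase 3 at -4.03. The preference was smaller under low calcium for CSLD3, with group means of 1.89 in root and 6.78 in shoot. It was also smaller for the inhibitor gene, with low-calcium means of 6.37 in root and 9.18 in shoot. The XTH with no number (Et_6B_048704) stood at -3.62 under optimum and -6.58 under low calcium. All differences in this paragraph passed with limma adjusted p below 0.05.

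Tef carries A and B subgenomes, and the gene IDs give a chromosome number with one of these letters. With copies defined by the same description and chromosome number and opposite letters, 34 of the 76 genes formed 18 pairs. The CESA9 gene Et_2B_022375 and the XTH8 gene Et_8B_059049 each entered 2 of these pairs, with different A genes. The copies are not independent, and reads shared by near-identical copies may have been divided between them in counting. In shoot both copies rose in 9 pairs, neither passed in 5 and the copies had different calls in 4. The median gap between the changes of 2 copies was 0.33. The largest gap, 1.70, was that of XTH8 (Et_8A_056202, 2.93, against Et_8B_059049, 1.23). The other A gene of XTH8 (Et_8A_056678, 1.93) had a gap of 0.70 to the same B gene. The description cannot tell which A gene is the true counterpart of that B gene. The changes had the same sign in 15 of the 18 pairs. Gaps above 1 were also seen for xyloglucan glycosyltransferase 9, at -0.42 (Et_4A_035533) and 0.83 (Et_4B_038079), neither past the test and named after their values were seen, and for callose synthase 7, at 1.87 and 0.85. The 4 pairs with different calls were callose synthase 3, callose synthase 8 and the 2 pairs of XTH8, and no test compared the copies. In root neither copy passed in any of the 18 pairs, and the largest gap was 0.39. By letter, 20 of 38 A genes and 19 of 38 B genes rose in shoot.

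**Figure D5:**
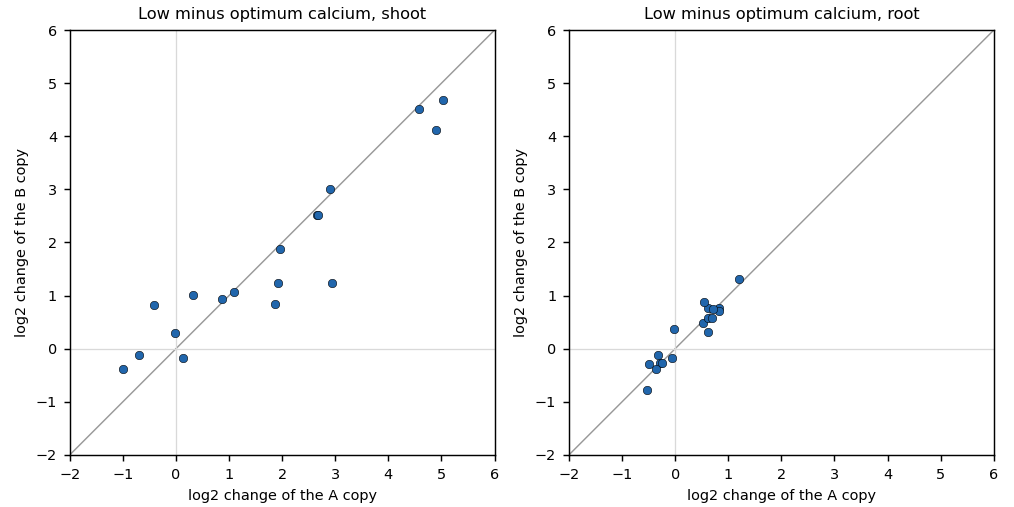
Log2 change under low calcium (low minus optimum) of the B copy (y axis) against the A copy (x axis) for 18 pairs, in shoot (left) and root (right), with the line of equal change. The gap between copies had a median of 0.33 in shoot and 0.11 in root. In shoot the largest gap, 1.70, is in an XTH8 pair whose B gene also enters another pair.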

How the data were processed

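Reads on 5824 genes were measured in 16 libraries of tef root and shoot. The deposited values are log2 values. How they were made (aligner, genome build, counting) is not given in the sources used here. Undoing the log2 and subtracting 1 gave whole multiples of 1 step per library for 100% of the 93184 values (tolerance 0.1 of a step), so the values as the authors deposited them are log2 of scaled reads plus 1, and reads per gene were recovered. The offset of 1 understates changes of genes with few reads. A further 5634 listed IDs carry no values. Each column was assigned to the library whose title carries its number. Headers of optimum-calcium columns start with an unexplained H. The small RNA length counts were not used here.

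Group means of the log2 values were compared with limma 3.58.1 (R 4.3.3, intensity trend) in 1 fit over the 16 libraries without a replicate term. Benjamini-Hochberg adjustment covered 5824 genes, the threshold was 0.05, and the script was tested on simulated data. Values in parentheses after ± are SE. Summaries and plots used scipy 1.17.1, matplotlib 3.10.9, pandas 2.3.3 and numpy 2.4.6 under Python 3.11.15. Alternatives were other scalings, voom on recovered reads, an offset of 0.1, a filter of a mean of 50 reads, a replicate block, fits to a single tissue or calcium level, a minimum log2 change of 1 and omission of each library in turn.

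The genes and lists were chosen with earlier results of these data known. Named genes are the 10 largest rises and 6 largest falls per calcium contrast, the 6 smallest p of the interaction, 4 and 4 per tissue contrast, the 2 genes of each class with most reads, and copies of these, 40 in all. A further 21, among them CESA7, CESA2, callose synthases 7 and 8, expansin-A10 and GAUT9, were named after their values were seen.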

Additional observations from a re-analysis of the deposited data

Results flagged for a closer look

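In 9 groups of 4 libraries out of 248 checked, 1 library lay far from the other 3, and chance flags about 1 in 20 groups. Low-calcium shoot replicate 3 was lowest for all 3 CESA9 copies, at 10.18 (Et_2A_018320), 10.14 (Et_2B_022375) and 8.72 (Et_2A_014947). Optimum-calcium shoot replicate 1 was lowest for GATL7 (Et_4A_035959, 4.49) and the polygalacturonase Et_10B_003012 (6.07). Optimum-calcium root replicate 3 was highest for an AGP31 copy (Et_9B_065088, 8.63) and an XTH24 (Et_7A_052122, 7.25). Low-calcium root replicate 3 was lowest for an XTH8 (Et_8A_056202, 6.26), and optimum-calcium root replicate 4 was lowest for the polygalacturonase Et_4B_038264 (3.73).

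For 21 genes the interaction test of limma found different calcium responses in root and shoot. The difference, root minus shoot, was -5.28 (Et_3A_027307) and -4.96 (Et_3B_031645) for FLA11, -3.75 (Et_1A_006758) and -3.81 (Et_1B_011615) for expansin-B4, -3.69 (Et_4A_033199) and -2.79 (Et_4B_036623) for expansin-B7, -3.01 for expansin-B6 (Et_1B_011613) and -3.43 for expansin-A5 (Et_1A_009302). Among the XTHs it was -3.48 for XTH30 (Et_1A_004770), -2.97 for the XTH with no number (Et_6B_048704) and -2.31 for XTH8 (Et_8A_056202). Among the cellulose and callose genes it was -2.37 (Et_1A_005975) and -2.53 (Et_1B_010843) for CESA7, -1.69 for CESA8 (Et_5A_041218), -2.19 (Et_3A_024029) and -0.97 (Et_3B_028471) for callose synthase 7 and -1.28 for callose synthase 8 (Et_1B_012547). Among the pectin genes it was -2.39 for the polygalacturonase Et_2B_020416, -2.65 (Et_1B_012225) and -2.49 (Et_1A_007274) for QUA2 and 1.83 for the invertase/pectin methylesterase inhibitor gene (Et_1A_009111).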

How the results depend on the processing

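No call of the 61 named genes changed direction under any alternative. The 39 rises in shoot numbered 33 to 41 with each library left out in turn, 37 with voom, 39 with a replicate block and 36 with shoot libraries alone, and 33 genes rose without any one library. The falls in shoot numbered 1 with a log2 change of at least 1 and 3 to 5 with a library left out. The 2 rises in root numbered 1 with a log2 change of at least 1, 11 with voom, 0 with the replicate block, 6 with root libraries alone and 0 to 10 with a library left out. They were 0 without replicate 1, 2 or 4 of either root group. The falls in root numbered 1 to 3. The 20 responses more positive in shoot numbered 10 with voom, 12 with copies summed (56 units, a choice made after seeing the data) and 13 to 23 with a library left out. Voom ended the difference for expansins B4, B6, B7 and A5, 1 FLA11 copy (Et_3B_031645), the unnumbered XTH (Et_6B_048704), 1 CESA7 copy (Et_1A_005975), callose synthases 7 (Et_3B_028471) and 8 and the inhibitor gene. The 1 more positive in root became 0 with voom and 0 to 3 with a library left out. The 16 genes higher in shoot under optimum calcium became 10 when libraries were scaled by their totals, which moved the median of all genes from -0.04 to 0.41. In shoot the same scaling moved it from -0.12 to 0.07, and 42 wall genes then rose. The cause of these shifts was not tested. Whether replicate numbers pair the libraries is not known. Of 4 same-numbered pairs per pair of groups, 0 to 2 had a correlation of deviations over 0.1. These correlations ran from -0.40 to 0.30, and with 4 pairs each they cannot settle the question. With the replicate block the interaction numbered 16 and the root falls 2. Few reads limited some genes, and 6 of the 76 had a library at 0. The part of depth in these zeros was not tested.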

Other observations

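Wall genes outside the rule were also higher in low-calcium shoot. A list of 86 genes was taken by description words, mostly for xylan, mannan, beta-glucan, wall sugar nucleotides or wall proteins. It also holds beta-galactosidases, fucosyltransferases, xylanase inhibitor proteins and inositol phosphorylceramide glucuronosyltransferases, so not every gene need act on the wall. Of the 86, 43 rose, 6 fell and 37 did not pass in limma, against 18.5% higher and 20.9% lower of all genes. Their median change was 0.68. Several that rose act on xylan or its side chains by name. Beta-D-xylosidase 4 (Et_7A_051926) rose by 3.70 (SE 0.55, limma adjusted p 0.00012), from 4.54 to 7.35 in optimum-calcium shoot to 8.62 to 9.91 in low-calcium shoot. Beta-D-xylosidase 7 (Et_6B_049627) rose by 3.51 and the xylan glucuronosyltransferase 1 (Et_1B_013637) by 3.12. Mannan synthase 9 (Et_2B_021134) rose by 3.65, and UDP-arabinopyranose mutase 3 (Et_5B_044658), which makes the sugar nucleotide for arabinose side chains, by 3.15. The largest fall was that of glucan endo-1,3-beta-glucosidase 3 (Et_5A_042288), by 1.00 on the log2 scale in shoot (limma adjusted p 0.018), a gene that rose by 1.77 in root (limma adjusted p 0.0061). In root 11 of the 86 rose and 2 fell, against 5.32% and 3% of all genes.

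The 29 lignifying-tissue genes had shoot changes from -0.72 to 4.94 with a median of 1.87. Of these, 17 rose, 2 fell and 10 did not pass, against 18.5% higher and 20.9% lower of all genes. The largest change was that of laccase-5 (Et_3A_025396), of a family that polymerises lignin. It had 1.56 to 2.99 in optimum-calcium shoot and 6.34 to 7.74 in low-calcium shoot, a rise of 4.94 (limma adjusted p 4e-06). The genes in these observations were singled out by the size of their change after their values were seen.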
